A study of Mus musculus with 3 samples.

Results

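Apoe, Apoc1, Apoc2 and Apoc4 are 4 apolipoprotein genes that lie side by side on mouse chromosome 7. They were taken by name from the 32285 genes of the deposited count tables, and all 4 of the 4 were present in every table. The tables came from single-cell RNA sequencing (10x Chromium 3′ chemistry, version 3) of live CD45+ cells sorted from digested whole aortas, adventitia included. There were 3 groups with 1 library each, so no difference between groups has a replicate check. All 3 groups are labelled ApoE-/- on the C57BL/6J strain: a control with no treatment named, mice given homocysteine (Hcy) at 1.8 g/L in drinking water for 4 weeks (HHcy), and mice given a western diet (WD) for 4 weeks. The labels give neither the age and number of the mice nor the part of Apoe that is disrupted. Every group thus carries the same label for the gene that is described first, and 3′ libraries read only the ends of transcripts, so an Apoe UMI (a unique molecular identifier, 1 counted RNA molecule) does not show whether its transcript was intact.

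Apolipoprotein E is the ligand by which lipoprotein remnants are taken up through receptors on the cell surface, and macrophages of the artery wall are known to secrete it. Mice without it carry high plasma cholesterol and develop atherosclerosis. Apolipoprotein C-II is the cofactor of lipoprotein lipase, apolipoprotein C-I slows remnant uptake by receptors, and apolipoprotein C-IV is a minor lipid-bound protein. The gene cluster is known as a target of liver X receptors in macrophages, which act through enhancers shared by its members.

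In the GENCODE M21 annotation of GRCm38, all 4 genes are on the minus strand of chromosome 7 within 27610 bp. Apoe (ENSMUSG00000002985) spans 19696109 to 19699188, Apoc1 (ENSMUSG00000040564) spans 19689481 to 19692660, Apoc4 (ENSMUSG00000074336) spans 19678083 to 19681479, and Apoc2 (ENSMUSG00000002992) spans 19671579 to 19677941. Apoc1 ends 3449 bp from Apoe, Apoc4 14630 bp and Apoc2 18168 bp. The nearest gene outside these 4 is Tomm40 on the far side of Apoe, at 2125 bp. A readthrough gene model, Gm44805, overlaps Apoc2 and Apoc4 on the same strand and has no row in the count tables. Whether reads from it were counted to either gene was not tested.

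The bases just before the start of transcription are shown because the question is whether genes packed this closely share a difference that was seen at one of them. The table of RefSeq promoters (GRCm38.p6) matched 3 of the 4 genes, Apoe, Apoc2 and Apoc4. Each run is the 250 bases before the start that RefSeq gives, 5′ to 3′ on the minus strand, and capitals mark the matches to the motifs named after them. The windows are chr7:19699189-19699438 for Apoe, chr7:19677942-19678191 for Apoc2 and chr7:19681461-19681710 for Apoc4.
Apoe: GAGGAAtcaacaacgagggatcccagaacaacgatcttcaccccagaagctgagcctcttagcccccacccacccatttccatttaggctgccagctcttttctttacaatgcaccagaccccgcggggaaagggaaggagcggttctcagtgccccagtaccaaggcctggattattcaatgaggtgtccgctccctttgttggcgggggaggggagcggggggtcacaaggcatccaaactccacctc
Apoc2: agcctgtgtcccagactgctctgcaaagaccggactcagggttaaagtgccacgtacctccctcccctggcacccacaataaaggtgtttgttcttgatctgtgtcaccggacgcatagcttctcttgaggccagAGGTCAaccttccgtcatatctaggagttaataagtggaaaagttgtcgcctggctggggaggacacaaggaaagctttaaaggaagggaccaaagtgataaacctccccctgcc
Apoc4: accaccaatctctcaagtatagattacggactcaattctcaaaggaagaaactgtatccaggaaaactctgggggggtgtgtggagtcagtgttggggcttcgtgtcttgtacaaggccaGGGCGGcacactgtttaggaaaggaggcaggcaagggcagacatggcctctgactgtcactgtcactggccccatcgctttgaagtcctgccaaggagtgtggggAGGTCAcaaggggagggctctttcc
Both strands were searched for AGGTCA (the nuclear receptor half-site), the DR4 repeat of that half-site (bound by liver X receptors with their partner), GAGGAA (the core bound by the macrophage factor PU.1), TATAAA (the TATA box), GGGCGG (the GC box) and CACGTG (an E-box). AGGTCA lay 115 bases before the start of Apoc2 and 25 bases before that of Apoc4, and 14.0% of all 32851 promoter windows of this length hold it. GAGGAA lay at the far edge of the Apoe window, 250 bases before the start, and 23.3% of windows hold it. GGGCGG lay 130 bases before the start of Apoc4, and 32.7% of windows hold it. None of the 3 windows held the DR4 repeat (0.0152% of windows), the TATA box (12.4% of windows) or the E-box (6.02% of windows), and the 3 windows shared no one motif. The 250 bases were 57.2% G and C for Apoe, 52.0% for Apoc2 and 54.0% for Apoc4.

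The libraries held 7512, 9753 and 8557 cell barcodes (control, HHcy and WD) with 66789257, 105180370 and 93164076 UMIs and medians of 6664, 7066 and 7678 UMIs per barcode. Pairs of libraries shared 20 to 24 barcodes. After limits of at least 200 genes and at most 10% mitochondrial UMIs, a marker rule set aside 12.2%, 23.0% and 22.7% of barcodes as doublets, which left 5302, 6281 and 5188 cells. Classes were rebuilt by joint clustering with the 4 genes left out of the clustering, and were named from marker genes. In macrophages/monocytes all 18 markers of that class were detected in every library. In the same cells the summed neutrophil markers reached 249 CPM (a gene's UMIs per 1000000 UMIs of the cells summed) in control, 593 CPM in the HHcy-labelled library and 264 CPM in the WD library, and B cell markers 174 to 253 CPM. Their part in the results was not tested.

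Apoe was far higher in 1 library, although every library carries the same label for it. Apoe had 1090 UMIs in control, or 16.3 CPM (95% Poisson interval 15.4 to 17.3), and 1801 UMIs in the WD library, or 19.3 CPM (18.4 to 20.2). In the library labelled HHcy it had 39368 UMIs, or 374 CPM (371 to 378). It stood 22.9-fold above the control library on the CPM scale, a log2 ratio of 4.52 (4.43 to 4.61), while the WD library stood at a log2 ratio of 0.24 (0.13 to 0.35). All intervals here cover counting error only, and no spread between animals can be given.

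The 3 neighbours did not share that difference at the level of whole libraries. Apoc2 was at 97.6 CPM in the control library (6516 UMIs), 71.5 CPM in the library labelled HHcy (7521 UMIs) and 78.3 CPM in the WD library (7296 UMIs). Against control the HHcy-labelled library gave a log2 ratio of -0.45 (-0.50 to -0.40), and the WD library one of -0.32 (-0.37 to -0.27). Apoc1, next to Apoe on the chromosome, was at 10.5, 6.26 and 10.9 CPM in the same order (702, 658 and 1014 UMIs). The HHcy-labelled library stood at a log2 ratio to control of -0.75 (-0.90 to -0.59), below 0 where that of Apoe was above. Apoc4 was the rarest, at 3.43, 3.51 and 5.41 CPM (229, 369 and 504 UMIs), with log2 ratios to control of 0.03 (-0.21 to 0.28) in the HHcy-labelled library and 0.66 (0.43 to 0.89) in the WD library. Whole libraries mix classes in different shares, so the same genes were next read class by class.

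Much of the Apoe in the library labelled HHcy lay outside the cells kept. Barcodes that the marker rule called doublets held 20912 of its 39368 Apoe UMIs (53.1%), and 20837 of these were in doublets with myeloid markers. Macrophages/monocytes held 13159 Apoe UMIs, barcodes over the mitochondrial limit 2570, and B cells 1647. In the control library macrophages/monocytes held 45.0% of Apoe UMIs and doublets 25.7%. Of the UMIs of all genes, doublets held 44794930 of 105180370 in the library labelled HHcy and 13973536 of 66789257 in control. The shares of Apoe in doublets thus go with how much of each library was set aside. The neighbours lay in doublets of the library labelled HHcy as well, at 60.9% of its Apoc2 UMIs, 50.4% of its Apoc4 UMIs and 35.7% of its Apoc1 UMIs.

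In macrophages/monocytes, Apoe stood at 28.7 CPM in the control library (491 UMIs in 1946 cells), 1147 CPM in the library labelled HHcy (13159 UMIs in 1213 cells) and 26.8 CPM in the WD library (789 UMIs in 2706 cells). The library labelled HHcy was thus 39.9-fold above control, at a log2 ratio of 5.32 (5.19 to 5.45), and the other 2 libraries differed by a log2 ratio of -0.10 (-0.27 to 0.06). Of the 4 genes, 1 was past a log2 ratio of 1 upwards, against 1.21% of the 11779 genes tested in that comparison, and none was past it downwards, against 1.42%. By size of log2 ratio, Apoe ranked 2 from the top of the 11779. Against the WD library it was 42.8-fold higher and ranked 5 of 12281, where 1.6% were past 1 upwards and 2.56% downwards. In WD against control none of the 4 was past that limit, against 1.41% of 12456 genes upwards and 1.13% downwards.

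**Figure D1:**
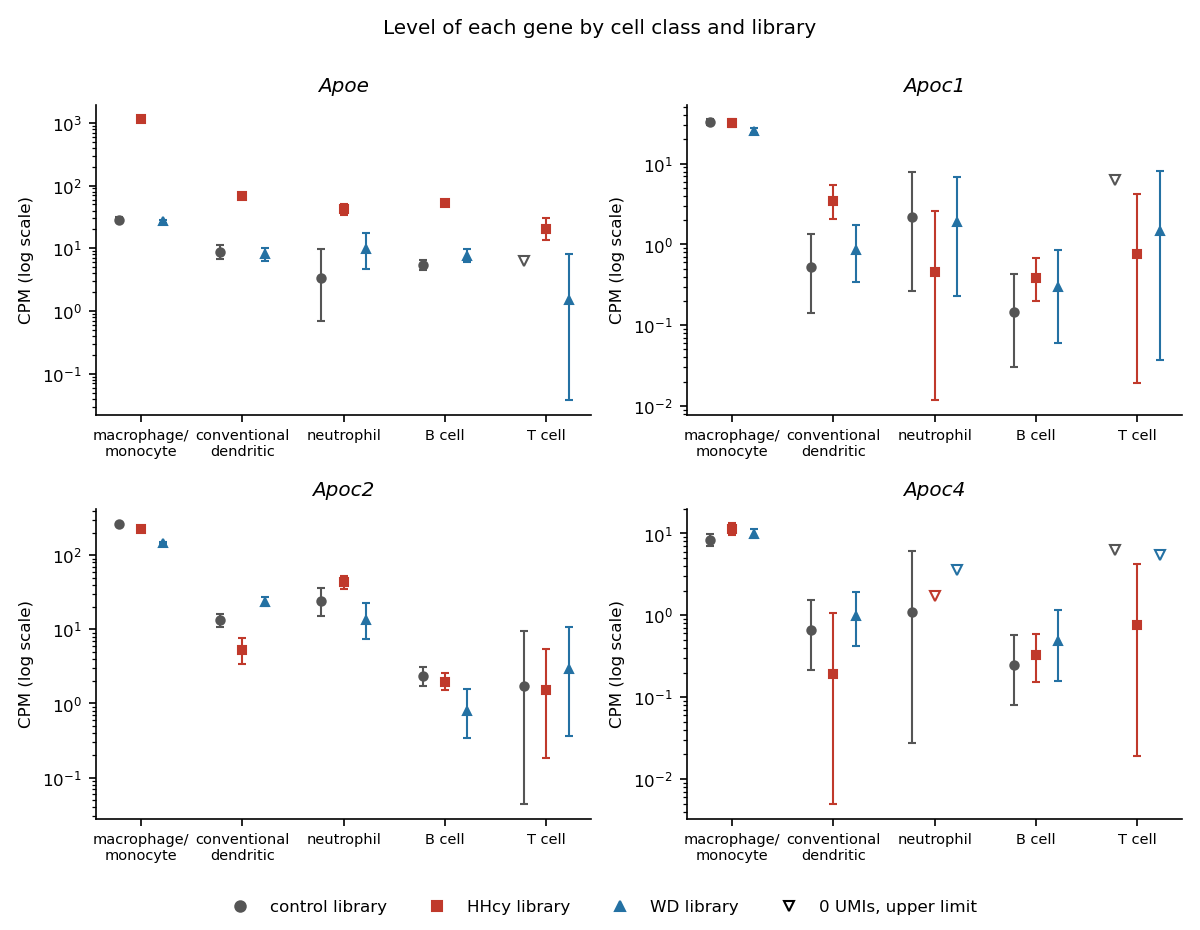
CPM (log axis) of each of the 4 genes in 5 cell classes. Points are the 3 libraries by colour, with 95% Poisson intervals, and open triangles mark the upper limit of a class with 0 UMIs. Apoe of the library labelled HHcy sits above both other libraries in every class, from 20.6 CPM in T cells to 1147 CPM in macrophages/monocytes, while the 3 libraries lie much closer together for the Apoc genes in macrophages/monocytes.

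Apoe was also higher in the library labelled HHcy in the other 4 classes with at least 30 cells in every library, at far lower levels. Conventional dendritic cells were at 8.75, 67.1 and 8.02 CPM (control, HHcy and WD), with a log2 ratio of 2.94 (2.56 to 3.34) for the HHcy-labelled library over control, where 2.89% of genes tested were past 1 upwards and 1.27% downwards. That ratio was 1.17 when each cell was named by its own markers and 4.12 with doublets kept. B cells were at 5.48, 53.4 and 7.68 CPM, a log2 ratio of 3.28 (3.01 to 3.57), where 1.56% were, and 4.55 with doublets kept. Neutrophils were at 3.31, 41.9 and 9.62 CPM, a log2 ratio of 3.66 (2.07 to 5.97) that rested on 3 UMIs in the control library, where 2.94% were past 1 upwards and 9.86% downwards. It was 2.33 with cells thinned to 1000 UMIs and 4.30 with doublets kept. T cells held 0 Apoe UMIs in control, 27 (20.6 CPM) in the HHcy-labelled library and 1 in the WD library. Read against a floor of 3 counts in the control library, T cells of the library labelled HHcy were 4.00-fold higher. That value rests on the floor, has no interval and is not a lower limit. The log2 ratio in T cells was 0.44 with cells thinned to 1000 UMIs and 4.32 with doublets kept.

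Smaller classes, with under 30 cells in at least 1 library, were not compared over the 3 libraries and are given as values. Apoe stood in the library labelled HHcy at 965 CPM in 32 endothelial cells (212 UMIs), 692 CPM in 25 Schwann or glial cells (82 UMIs), 609 CPM in 24 mast cells (65 UMIs) and 146 CPM in 82 fibroblasts (104 UMIs). It stood there at 72.3 CPM in 38 ILC2 (19 UMIs), 39.4 CPM in 65 plasma cells (82 UMIs) and 12.9 CPM in 16 NK cells (2 UMIs). Control fibroblasts held 0 Apoe UMIs in 29 cells and WD fibroblasts 14 in 158 cells. Endothelial cells were at 132 CPM in control (7 UMIs in 14 cells) and 64.4 CPM in the WD library (16 UMIs in 65 cells). Mast cells were at 38.7 CPM in control (6 UMIs in 31 cells). For the HHcy-labelled library over WD, the log2 ratio in endothelial cells was 3.91 (3.17 to 4.74).

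T cells are the class here that should lack Apoe, so their share of cells with an Apoe UMI serves as a background for the other classes. In the library labelled HHcy, 14.5% of 165 T cells held an Apoe UMI at a median of 6087 UMIs per cell, beside 22.8% of B cells (median 6442 UMIs), 16.4% of neutrophils (4646), 27.0% of conventional dendritic cells (14973) and 45.7% of macrophages/monocytes (8236). With every cell thinned to 1000 UMIs the shares were 3.70% of T cells (exact binomial interval 1.37% to 7.89%), 4.67% of B cells (4.02% to 5.39%), 5.12% of neutrophils (3.11% to 7.88%), 2.71% of conventional dendritic cells (1.25% to 5.08%) and 23.2% of macrophages/monocytes (20.9% to 25.8%). Only the last lay above the interval of the T cells, so by the thinned share, which rests on 6 T cells with a UMI, B cells, neutrophils and dendritic cells of that library could not be told from background. At full depth their summed levels lay above the 20.6 CPM of T cells (interval 13.5 to 29.9), at 53.4 CPM (50.8 to 56.0) in B cells, 41.9 CPM (33.7 to 51.4) in neutrophils and 67.1 CPM (60.2 to 74.5) in dendritic cells. Without thinning, 18 of 3793 B cells of that library held 10 or more Apoe UMIs, and the highest held 28. In the control library, thinned shares were 0 of 110 T cells, 0.528% of B cells and 2.41% of macrophages/monocytes. Macrophage/monocyte markers summed to 319, 357 and 494 CPM in B cells of the 3 libraries, in that order. Their part in the Apoe of B cells was not tested.

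Within the macrophages/monocytes of the library labelled HHcy, Apoe UMIs per cell ran from 0 to 491, with 372 of 1213 cells between 1 and 9. At least 1 UMI was found in 554 of 1213 cells (45.7%), at least 10 in 182 (15.0%, interval 13.04% to 17.1%), at least 100 in 43 (3.54%), and the highest cell held 491. The other 659 cells held 0 Apoe UMIs at a median depth of 8080 UMIs, close to the 8242.5 of the 182 high cells. In the control library 305 of 1946 cells held an Apoe UMI, 1 held at least 10 (0.0514%) and the highest held 19. In the WD library 460 of 2706 did, 2 held at least 10 (0.0739%) and the highest held 13. The high cells were therefore almost all in 1 library, and the majority of macrophages/monocytes of that library held no Apoe UMI.

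**Figure D2:**
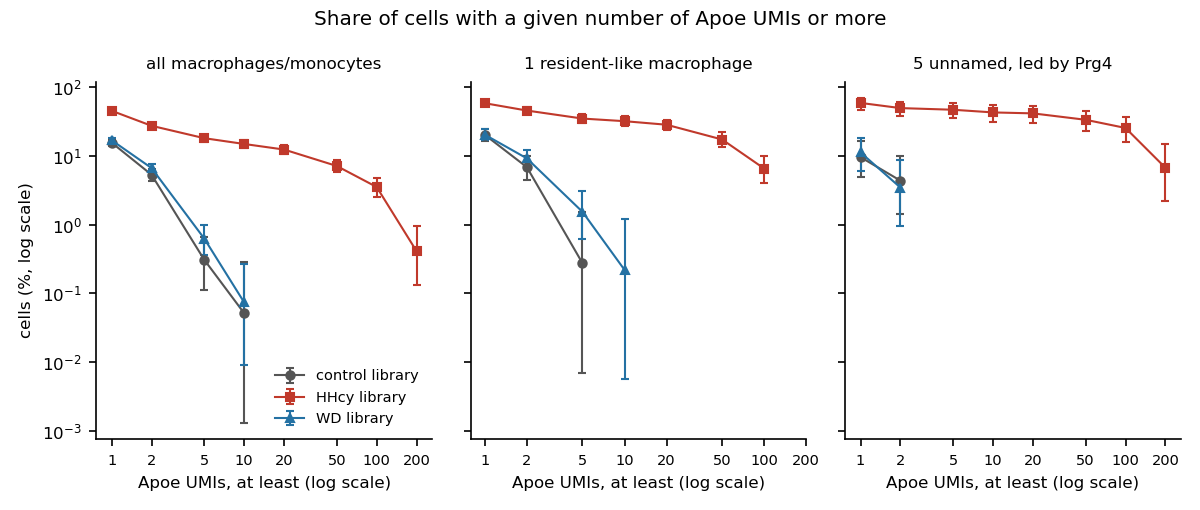
Share of cells (log axis) with at least the number of Apoe UMIs on the log x axis, with exact 95% binomial intervals, for all macrophages/monocytes and for sub-clusters 1 and 5. Lines are libraries, and a line ends where no cell reaches the next number. In the library labelled HHcy the share falls slowly from 45.7% at 1 UMI to 15.0% at 10 UMIs, while the control library falls from 15.7% to 0.0514% and the WD library from 17.0% to 0.0739%.

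Apoc2, the lipase cofactor, was the most abundant of the 4 in macrophages/monocytes of the control and WD libraries, at 268 CPM (4582 UMIs) and 145 CPM (4265 UMIs). UMIs are counted 1 per molecule at its 3′ end, so these levels carry no term for gene length. In the library labelled HHcy, Apoc2 was at 223 CPM (2562 UMIs) and Apoe exceeded it. Relative to control, the library labelled HHcy stood at a log2 ratio of -0.26 (-0.33 to -0.19) and the WD library at -0.89 (-0.95 to -0.83). The second value moved to -0.16 when each library was given the same mix of sub-clusters, a setting chosen once the data had been seen. Non-classical monocytes, in which Apoc2 was high (below), formed 2 sub-clusters, of which the larger made up 25.8% of control and 15.7% of WD macrophages/monocytes and the smaller 2.57% and 5.17%. In conventional dendritic cells Apoc2 was at 13.2, 5.22 and 23.6 CPM, with 10 cells holding 80.9% or more of its UMIs in each library. Its direction there depended on how doublets were treated: for the HHcy-labelled library over control the log2 ratio was -1.34 (-2.01 to -0.71) without doublets and 0.63 with them. In neutrophils it was at 24.3, 43.3 and 13.5 CPM, and the log2 ratio of 0.84 (0.15 to 1.58) became -0.35 with doublets kept.

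Apoc1 was at 33.4 CPM (570 UMIs), 32.0 CPM (367 UMIs) and 25.8 CPM (761 UMIs) in macrophages/monocytes of control, HHcy and WD. Between the library labelled HHcy and control its log2 ratio was -0.06 (-0.25 to 0.13), an interval whose upper end lies far below the 5.32 of Apoe. That value depended on the sub-cluster that holds most Apoc1 (sub-cluster 5, below): without it, a setting also chosen once the data had been seen, the log2 ratio was 1.68 (1.19 to 2.18), and with doublets kept it was -0.57. The log2 ratio of WD to control was -0.37 (-0.53 to -0.21). Few cells carried it: 59 control cells, 60 cells of the library labelled HHcy and 91 WD cells held a UMI, and 10 cells held 80.4%, 75.5% and 63.6% of the UMIs. Its summed level thus rests on a handful of cells. The direction of WD against control turned to 0.72 when cells were thinned to 1000 UMIs and to 1.34 without sub-cluster 5. In conventional dendritic cells Apoc1 had 4, 18 and 7 UMIs (control, HHcy and WD). Its log2 ratio there for the HHcy-labelled library over control was 2.74 (1.13 to 4.76), in the direction of Apoe. Over other settings it ran from 2.36 to 2.88. It rests on few UMIs, and 1 cell of the HHcy-labelled library held 10 or more. In the same comparison Apoc2 stood at -1.34 (-2.01 to -0.71) and Apoc4, with 5 and 1 UMIs, at -1.76 (-7.32 to 1.40).

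Apoc4 was at 8.31 CPM (142 UMIs), 11.4 CPM (131 UMIs) and 9.98 CPM (294 UMIs) in the macrophages/monocytes of the 3 libraries. For the HHcy-labelled library over control the log2 ratio was 0.46 (0.11 to 0.81), and for WD over control 0.26 (-0.03 to 0.56). Without cells of 10 or more Apoe UMIs the first value was -0.0025, with doublets kept it was 0.0097, and with cells thinned to 1000 UMIs it was 0.94. Without sub-cluster 5 the second value was 1.34 (0.80 to 1.93). In T cells of the 3 libraries Apoc4 had at most 1 UMI, and in B cells 5, 10 and 5, or 0.24, 0.32 and 0.49 CPM. B cells likewise had 3, 12 and 3 Apoc1 UMIs and 48, 61 and 8 Apoc2 UMIs, so all 3 neighbours were higher in macrophages/monocytes than in the other classes compared.

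Macrophages/monocytes fell into 13 sub-clusters, and the 4 genes did not all peak in the same one. Apoc2 was highest in monocytes. In sub-cluster 2, non-classical monocytes led by Itgal, Ace and Treml4, it was at 781 CPM (control), 637 CPM (HHcy) and 852 CPM (WD), with 10 or more UMIs in 97 of 503, 43 of 227 and 87 of 426 cells. In sub-cluster 11, classical monocytes led by Ccr2, it was at 510.5 CPM in 34 control cells and 1175 CPM in 41 cells of the library labelled HHcy, a log2 ratio of 1.20 (0.96 to 1.45). That sub-cluster held 2 WD cells. In sub-cluster 1, resident-like macrophages led by Cd163, Lyve1 and Folr2, Apoc2 was at 8.60, 5.35 and 6.28 CPM.

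Apoc1 and Apoc4 shared a peak elsewhere. Both were highest in sub-cluster 5, which was left unnamed and was led by Prg4, Alox15, Saa3, Fn1 and Cd5l. Apoc1 stood there at 333 CPM (517 UMIs in 114 cells) in the control library, 185 CPM (257 UMIs in 74 cells) in the HHcy-labelled library and 251 CPM (524 UMIs in 115 cells) in the WD library. Apoc4 stood at 69.6, 70.6 and 67.9 CPM (108, 98 and 142 UMIs), a log2 ratio of 0.02 (-0.39 to 0.43) between the library labelled HHcy and control. Apoc2 was present there as well, at 267, 176 and 124 CPM. In this sub-cluster the log2 ratio of Apoc1 for the HHcy-labelled library over control was -0.85 (-1.07 to -0.63).

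Apoe differed between libraries in where it was highest. In the control library its 13 levels ran only from 9.63 to 56.3 CPM, with the resident-like sub-cluster 1 and the non-classical sub-cluster 4 highest. Its highest level in the library labelled HHcy was in sub-cluster 5, where Apoc1 and Apoc4 also peaked. It was there at 12.9 CPM in the control library (20 UMIs), 3213 CPM in the library labelled HHcy (4459 UMIs) and 8.13 CPM in the WD library (17 UMIs), a 249-fold ratio to control and a log2 ratio of 7.96 (7.33 to 8.67). In resident-like sub-cluster 1 it was at 53.4, 3063 and 51.1 CPM (118, 6303 and 187 UMIs), a 57.4-fold ratio. Those sub-clusters held 33.9% and 47.9% of the Apoe UMIs of the macrophages/monocytes of the library labelled HHcy, in 6.10% and 25.1% of its cells. Apoe was lower there in classical monocytes, at 125 CPM in sub-cluster 0 against 21.5 CPM in control, a log2 ratio of 2.54 (2.13 to 2.96). The smallest ratio was in sub-cluster 11, at 1.04 (-0.27 to 2.47), from 8 and 16 UMIs.

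**Figure D3:**
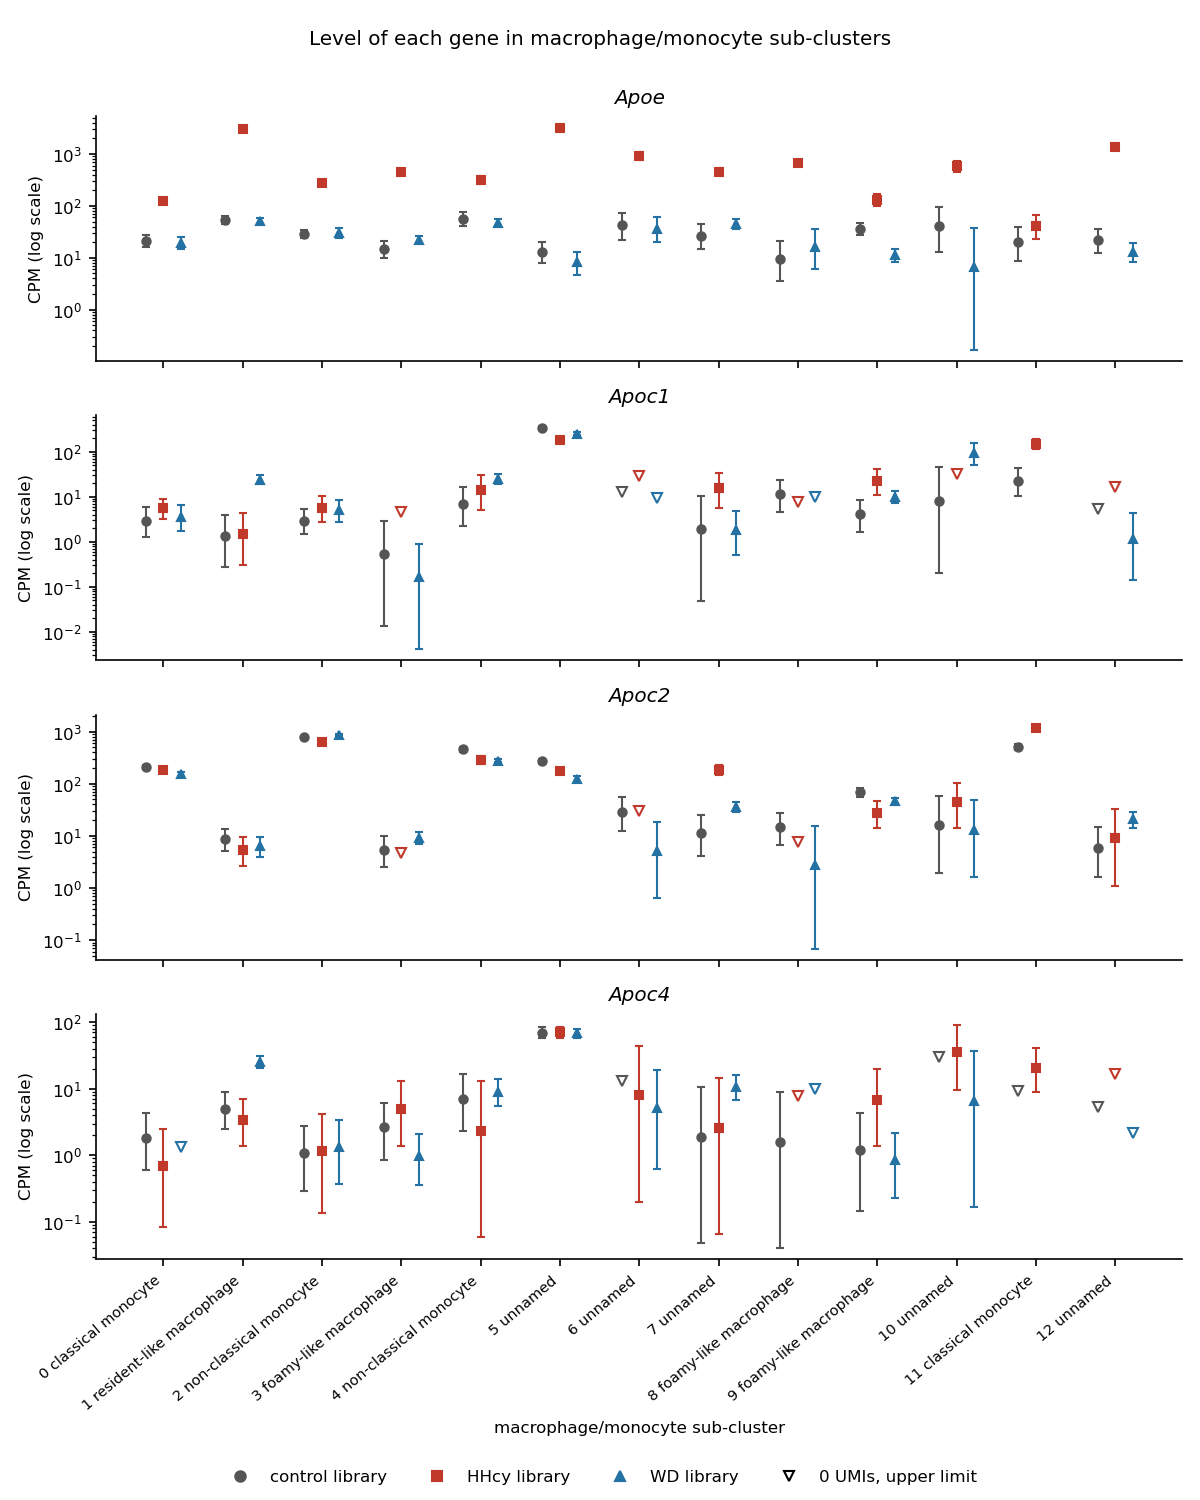
CPM (log axis) of each gene in the 13 macrophage/monocyte sub-clusters, 1 colour a library, with 95% Poisson intervals. Open triangles mark the upper limit of a sub-cluster with 0 UMIs, and the 2 WD cells of sub-cluster 11 are not drawn. Apoe of the library labelled HHcy lies above the other points drawn, from 41.1 CPM in sub-cluster 11 to 3213 CPM in sub-cluster 5. In sub-cluster 11 its log2 ratio to control was 1.04 (-0.27 to 2.47), and that to the 2 WD cells was -2.58 (-3.94 to -1.06). Apoc1 and Apoc4 peak in sub-cluster 5 in each library and Apoc2 in the monocyte sub-clusters 2 and 11.

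In resident-like sub-cluster 1, where Apoe differed 57.4-fold, its neighbours were near the floor in both the control library and the library labelled HHcy. Apoc1 had 3 and 3 UMIs, Apoc2 19 and 11, and Apoc4 11 and 7, in 363 and 304 cells. The log2 ratio of Apoc2 was -0.69 (-1.90 to 0.46) and that of Apoc4 -0.55 (-2.15 to 0.95). In the WD library the same sub-cluster held 88 Apoc1 UMIs in 454 cells, of which 1 cell held 57, and 92 Apoc4 UMIs in 34 cells, or 25.1 CPM against 4.98 CPM in control. The log2 ratio of Apoc4 in WD to control was 2.34 (1.43 to 3.39) there, without a like difference in Apoe (-0.06, -0.40 to 0.28).

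Elsewhere an Apoc gene exceeded its control level in some sub-clusters, not all of which are given here. In the 41 cells of sub-cluster 11 of the library labelled HHcy, Apoc1 stood at 152 CPM against 22.5 CPM, a log2 ratio of 2.75 (1.73 to 3.95), and 10 cells held 96.6% of its 59 UMIs. In sub-cluster 7, led by class II genes, Apoc2 was at 184 CPM in 34 cells of the library labelled HHcy and 11.4 CPM in 53 control cells, with all 71 UMIs in 4 cells. In foamy-like sub-cluster 3, led by Cd72 and Ms4a7, Apoe was at 14.8, 442 and 21.8 CPM while Apoc1 and Apoc2 had 0 UMIs in the library labelled HHcy. In foamy-like sub-cluster 9, led by Fabp5 and Gpnmb, Apoe was at 35.8, 131 and 11.2 CPM. Its log2 ratio of WD to control there was -1.67 (-2.23 to -1.11), and 1 control cell held 19 of the 60 control UMIs.

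The relation was then read from cell to cell within the library labelled HHcy, by splitting its macrophages/monocytes on their own Apoe UMIs into 659 cells of 0, 372 cells of 1 to 9 and 182 cells of 10 or more. Such a split is a range and not a cell type, and 39 cells lay between 5 and 9 UMIs, just under the limit. Apoc1 was at 34.0, 25.8 and 38.5 CPM in the 3 ranges, with a log2 ratio of the high cells to those of 0 of 0.18 (-0.23 to 0.58). Apoc2 was at 224, 256 and 155 CPM, a log2 ratio of -0.53 (-0.72 to -0.34). Apoc4 was at 9.90, 5.85 and 27.6 CPM, a log2 ratio of 1.48 (0.91 to 2.05), and was past 1 where 3.82% of 9598 genes tested were past it upwards and 3.6% downwards. The high cells held 51 Apoc4 UMIs, of which 49 were in sub-cluster 5.

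Within single sub-clusters the ratios differed from those over all cells. In resident-like sub-cluster 1, 98 cells held 10 or more Apoe UMIs (9216 CPM on average) and 125 cells held 0. These held 5 and 5 Apoc2 UMIs, 1 and 2 Apoc1 UMIs, and 1 and 6 Apoc4 UMIs, all near the floor. In sub-cluster 2, 15 high cells and 142 cells of 0 had Apoc2 at 609 and 607 CPM, a log2 ratio of 0.00 (-0.36 to 0.35). In sub-cluster 0, classical monocytes, 9 high cells and 137 cells of 0 had Apoc2 at 422 and 191 CPM, a log2 ratio of 1.15 (0.69 to 1.58). In sub-cluster 4, 4 high cells and 11 cells of 0 had Apoc2 at a log2 ratio of 1.48 (0.40 to 2.61), and in sub-cluster 9, 2 high cells and 17 cells of 0 had Apoc2 at 4.68 (2.29 to 7.98) and Apoc1 at 4.46 (1.98 to 7.80), where the high cells held 7 and 6 UMIs, each in 1 cell. In sub-cluster 5, 32 high cells and 30 cells of 0 had Apoc4 at 84.2 and 60.3 CPM, a log2 ratio of 0.48 (-0.19 to 1.17). There Apoc2 was higher in the high cells, at 220 against 128 CPM (log2 ratio 0.78, 0.34 to 1.23), and Apoc1 lower, at 107 against 228 CPM (-1.10, -1.56 to -0.64). Apoe itself was at 7614 CPM in these 32 cells. At this split Apoc2, lower in high cells over all macrophages/monocytes, was thus higher in them in sub-clusters 0, 4, 5 and 9, with few high cells outside sub-cluster 5. Part of this depended on the limit. At a split of 20 Apoe UMIs the Apoc2 log2 ratio was 0.43 (-0.25 to 1.04) in sub-cluster 0 and -1.18 (-2.14 to -0.37) in sub-cluster 2. It was then 2.07 in sub-cluster 4, 0.82 in sub-cluster 5 and 5.78 in sub-cluster 9.

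**Figure D4:**
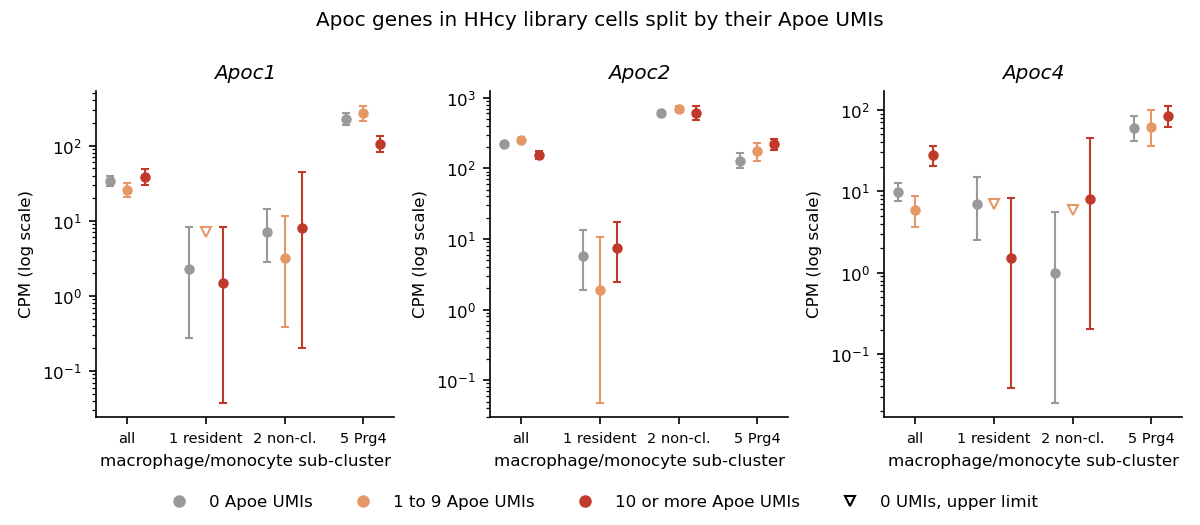
CPM (log axis) of Apoc1, Apoc2 and Apoc4 in cells of the library labelled HHcy with 0, 1 to 9 or 10 or more Apoe UMIs, for all macrophages/monocytes and for sub-clusters 1 (resident-like), 2 (non-classical monocyte) and 5 (led by Prg4), with 95% Poisson intervals. Open triangles mark upper limits at 0 UMIs. Apoc4 of all cells is higher at 10 or more Apoe UMIs (27.6 against 9.90 CPM), and within sub-cluster 5 its intervals overlap (84.2 and 60.3 CPM).

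The number of Apoc UMIs per 100 Apoe UMIs also differed between classes of 1 library. In the library labelled HHcy it was 19.5 for Apoc2, 2.79 for Apoc1 and 0.996 for Apoc4 in macrophages/monocytes, and 3.70, 0.729 and 0.607 in B cells. Conventional dendritic cells had 7.78 Apoc2 UMIs per 100 Apoe UMIs and neutrophils 103. In macrophages/monocytes of the control library the same figures were 933 for Apoc2, 116 for Apoc1 and 28.9 for Apoc4. Apoe thus moved from the third of the 4 genes by level in the control library to the first in the library labelled HHcy.

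The other genes of the region showed no like difference between libraries in macrophages/monocytes. Of 16 listed genes from Mark4 to Bcl3, which flank the apolipoproteins on both sides, 12 had at least 30 UMIs and could be compared. None was past a log2 ratio of 1 in either direction in the library labelled HHcy against control, where 1.21% and 1.42% of all genes were. A count of 0 is thus near the background. Their median was 0.02 beside -0.04 over all genes. Tomm40, a subunit of the mitochondrial import channel and the closest gene to Apoe, was at 24.3, 25.7 and 30.3 CPM (control, HHcy, WD). Its log2 ratio for the HHcy-labelled library over control was 0.08 (-0.14 to 0.30). Clptm1, the first gene beyond Apoc2, was at 48.9, 48.8 and 47.2 CPM (0.00, -0.16 to 0.15), and Relb, an NF-kB subunit, at 51.3, 52.3 and 55.1 CPM (0.03, -0.12 to 0.18). For the library labelled HHcy against control, the first gene beyond each end of the cluster thus had a counting interval that took in 0. Between cells of 10 or more and of 0 Apoe UMIs in the former library, 11 region genes could be compared. Bcam, picked out after its values were seen, was past 1 upwards, at 10.8 against 2.90 CPM (20 and 17 UMIs). Its log2 ratio was 1.90 (0.90 to 2.93), where 3.82% of all genes were past 1 upwards. None was past 1 downwards, where 3.6% were. In the resident-like sub-cluster none of 6 was past 1, where 1.29% were upwards and 1.81% downwards.

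**Figure D5:**
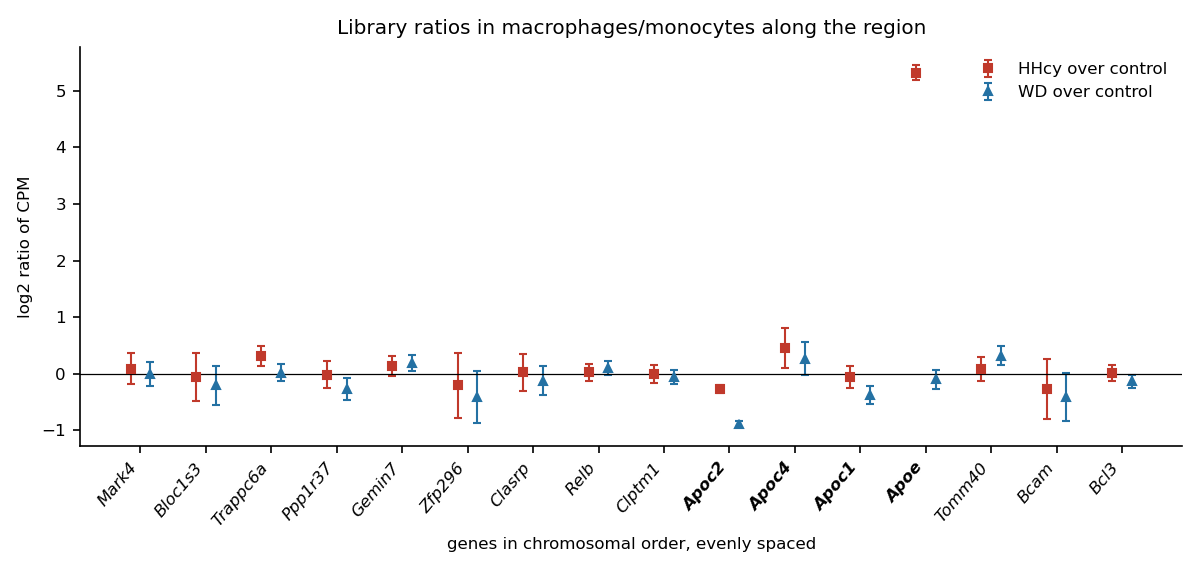
Log2 ratio of CPM in macrophages/monocytes, the HHcy-labelled library and the WD library each over control, for the 4 apolipoprotein genes (bold) and the 12 other genes of the region with at least 30 UMIs, in chromosomal order and evenly spaced. Bars are exact 95% intervals of counting error. Apoe stands alone at 5.32, and every other gene lies between -0.89 (Apoc2, WD over control) and 0.46 (Apoc4, HHcy over control).

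In B cells 13 of the 16 genes of the region could be compared. None was past 1 upwards in the library labelled HHcy against control, where 1.56% of genes were, and 1 was past it downwards, where 2.83% were: Nectin2, an adhesion receptor, at 2.66 CPM against 10.2 CPM (log2 ratio -1.94, -2.33 to -1.57). It was singled out after its values were seen. In macrophages/monocytes Nectin2 had 16, 9 and 13 UMIs in the 3 libraries and was not compared.

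Among 13 other apolipoprotein genes and their partners, 4 could be compared in macrophages/monocytes (Apobr, Apobec1, Apod and Clu). In each comparison 1 of the 4 was past 1 upwards and none downwards, beside 1.21% and 1.42% of all genes for the HHcy-labelled library and 1.41% and 1.13% for WD. Apod, a lipocalin that binds small lipids, was past 1 in the library labelled HHcy against control, at 3.49 CPM (40 UMIs) against 0.761 CPM (13 UMIs), a log2 ratio of 2.197 (1.26 to 3.22). All 39 of the Apod UMIs in cells of 0 or of 10 or more Apoe UMIs lay in the former. Clu, which encodes the extracellular chaperone clusterin, was past 1 in WD against control, at 8.21 CPM against 1.76 CPM (2.23, 1.68 to 2.83), and stood at 1.57 CPM in the library labelled HHcy. The medians of the 4 genes were -0.11 and 0.34 beside -0.04 and -0.02 over all genes.

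Genes of lipoprotein uptake, lipolysis and cholesterol efflux did not differ on the scale of Apoe. Of 30 listed, 27 could be compared between the library labelled HHcy and control and 28 between WD and control, and none was past 1 in either direction, with medians of -0.07 and 0.02. Over all genes 1.21% and 1.42% were past it upwards and downwards in the first comparison and 1.41% and 1.13% in the second, so a count of 0 is near the background. Lpl, the lipase that apolipoprotein C-II activates, was at 244, 165 and 299 CPM (control, HHcy, WD), with log2 ratios to control of -0.56 (-0.64 to -0.49) in the HHcy-labelled library and 0.30 (0.24 to 0.35) in the WD library. The exporter Abcg1 was at 169, 137 and 213 CPM, and the exporter Abca1 at 172, 157 and 206 CPM. Nr1h3, which encodes the liver X receptor alpha, was at 43.6, 37.7 and 51.9 CPM, and the remnant receptor Lrp1 at 280, 262 and 246 CPM.

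Within the library labelled HHcy, cells of 10 or more Apoe UMIs in the resident-like sub-cluster had 2 of 22 listed lipoprotein genes past 1 downwards and none upwards against cells of 0, where 1.81% and 1.29% of 5795 genes were. These were Lpl, at 27.1 against 81.6 CPM (log2 ratio -1.59), and Abcg1, at 9.02 against 33.3 CPM (-1.89), the latter from 6 and 29 UMIs. Abca1 was at 272 and 348 CPM in the same cells. Across all macrophages/monocytes, where the 2 ranges differ in their sub-clusters, 2 of 27 were past 1 upwards and 2 downwards, beside 3.82% and 3.6% of all genes tested.

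The 182 cells of that library with 10 or more Apoe UMIs differed from the 659 cells of 0 in other genes as well. Markers of plasma cells summed to 694 CPM in the 182 high cells and 298 CPM in the 659 cells of 0, and B cell markers to 306 and 239 CPM. All 10 plasma cell markers were detected in both, but Jchain and Mzb1 (188 against 31 UMIs) made up most of the difference in their sum. The genes with the largest ratios between the ranges included Igha (1972 against 123 UMIs) and Jchain (490 against 83 UMIs), which plasma cells express and which were picked out after their values were seen. Their part in the difference was not tested.

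The genes whose level followed each member most closely were found by Pearson correlation of log2(CPM + 10) over 15 sums, 5 classes in 3 libraries, among 11603 genes of at least 200 UMIs. The sums of 1 library share its cell suspension and depth, so the coefficients are a description. For Apoe they were Cd209b (r = 0.87), Hal (0.83), Cd209g (0.81), Fam167b (0.79) and Marco (0.78). For Apoc2 they were Treml4 (0.98), Nupr1, Thbd, Scarf1 and Fam20c (0.96 to 0.97). For Apoc1 they were Ltbp1 (0.99), Mlxipl, Gm48832, Cd5l and Nxpe4 (0.98 to 0.99). Among themselves, Apoc1 and Apoc4 were closest (r = 0.97), Apoc1 and Apoc2 next (0.91), and Apoe stood lower with each (0.56 to 0.62). By rank correlation Apoc1 and Apoc2 were closest (0.76), Apoc1 and Apoc4 next (0.57), and Apoe again lower (0.31 to 0.48). Over 36 sums of macrophage/monocyte sub-clusters, Apoe had r = -0.09 with Apoc1, -0.11 with Apoc2 and 0.20 with Apoc4, while Apoc1 and Apoc4 had 0.76. Over those 36 sums the genes most like Apoe were Ighg1 (0.77), Ighg2c (0.68), Ighg2b (0.64), Igha and Jchain (both 0.62), immunoglobulin genes of plasma cells and their joining chain.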

How the data were processed

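The authors deposited UMI counts per gene and barcode, 1 matrix for each library. Cell Ranger 4.0.0 is named per the file headers, and Cell Ranger 2.2.0 with the build mm10 per the submitters' processing notes. The members and gene lists were chosen with earlier results of these data known. No column outside the series was used (0 found). Libraries shared 24 barcodes (control and HHcy), 20 and 23 (with WD), too few to remove.

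Barcodes of at least 200 genes and at most 10% mitochondrial UMIs were kept, and doublets were removed by a rule on markers of 2 classes. Cells were clustered jointly without the 4 members (2000 variable genes, 30 components, 20 neighbours, Leiden resolution 1, a second round at 2, sub-clusters at 0.8, seed 1) and named by markers at a score of at least 0.5. The doublet and naming limits, the second round, the added alternatives, the likeness of Apoc4 and the look at Hal and Ifi202b were set after the data were examined. UMIs were summed by class and library. With 1 library per group there was no test across samples: CPM has exact Poisson intervals, shares have exact binomial (Clopper-Pearson) intervals, and log2 ratios have exact conditional binomial intervals, all at 95%. A gene was compared if it had 30 UMIs over both libraries, and was called past a log2 ratio of 1. The members were always named. List genes were named if past that ratio in macrophages/monocytes with an interval that leaves out 0, together with Lrp1, Abca1, Abcg1, Nr1h3, Lpl, Tomm40, Clptm1, Relb and 1 further gene that is not reported here. The 5 genes most like Apoe, Apoc1 and Apoc2 were named as well. The log2 ratios and their intervals were tested on simulated sums drawn as independent Poisson counts. The intervals rest on the same assumption, so this checked the calculation only and not the effect of UMIs gathered in few cells. Alternatives were a 20% mitochondrial limit, doublets kept, naming by each cell's own markers, thinning, other scalings and other count minimums. Python 3.11.15, numpy 2.4.6, scipy 1.17.1, pandas 2.3.3, scanpy 1.11.5, scikit-learn 1.9.0, igraph 0.11.9 and matplotlib 3.10.9 were used. Libraries held 66789257 to 105180370 UMIs, so counting error is small for Apoe and Apoc2 in whole libraries and in macrophages/monocytes. It is larger for Apoc1 and Apoc4, and for any of the members in a class where it had few UMIs, such as Apoe in T cells and control neutrophils.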

Additional observations from a re-analysis of the deposited data

Results flagged for a closer look

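Among barcodes left out of the comparisons, 4 levels of these genes above the control level were flagged. Other levels in such barcodes lay above or below control and were not flagged. In barcodes set aside as doublets, Apoe stood at 467 CPM in the library labelled HHcy against 20.04 CPM in control. In barcodes over the mitochondrial limit, Apoe stood at 519 CPM there against 25.4 CPM in control, and Apoc4 at 7.88 CPM against 2.08 CPM. In WD barcodes over that limit, Apoc1 stood at 8.85 CPM against 2.85 CPM in control.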

How the results depend on the processing

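Of 118 alternatives of the main results, 84 left the value within its spread or count limit, 31 moved it and 3 reversed it. Of 144 alternatives of the other results, 124, 15 and 5 did. No paired analysis was possible because each group holds 1 library, and no library could be left out for the same reason. In macrophages/monocytes, for the library labelled HHcy against control, the log2 ratio of Apoe was 5.16 at a 20% mitochondrial limit, 4.94 with doublets kept, 5.65 thinned, 5.06 at the same sub-cluster mix and 4.83 without sub-cluster 5. That of Apoc1 was -0.57 with doublets kept, -0.36 at the same mix and 1.68 without sub-cluster 5. That of Apoc2 was -0.35 with doublets kept and -0.18 without cells of 10 or more Apoe UMIs. That of Apoc4 was 0.0097 with doublets kept, 0.94 thinned and -0.0025 without those cells. For WD against control, Apoe was at 0.31 thinned and 0.12 at the same mix. Apoc1 was at 0.72 thinned, -0.14 at the same mix and 1.34 without sub-cluster 5. Apoc2 was at -0.80 at 20%, -0.70 thinned and -0.16 at the same mix. Apoc4 was at -0.037 thinned and 1.34 without sub-cluster 5. Apoe in B cells of the library labelled HHcy against control was at 4.55 with doublets kept. Apoc2 in dendritic cells turned to 0.63 with doublets kept and 0.57 thinned, and for WD to -2.27 with cells named by their own markers. Apoc2 in neutrophils turned to -0.35 and -0.13 with doublets kept and thinned. At 10 UMIs, 1 gene of the region and 1 lipoprotein gene were past 1 for WD against control. The split of Apoc2 was -0.33 at 5 Apoe UMIs and -0.86 at 20. Of the 5 genes most like each member, log2(CPM + 1) kept 3 for Apoe, 3 for Apoc1 and 2 for Apoc2, and Spearman's rho kept 1, 0 and 1. The causes were not tested. Scaling by the median of ratios shifted all genes by -0.32 and -0.20 in neutrophils (HHcy and WD against control) and by -0.14 in T cells (HHcy against control).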

Other observations

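A pair of other genes, chosen after their values were seen, differed with the Apoe UMIs of cells in the library labelled HHcy. Hal, which encodes histidine ammonia-lyase, had 176 UMIs in the 98 resident-like cells of 10 or more Apoe UMIs, spread over 32 cells, and 0 UMIs in the 125 resident-like cells without Apoe. The resident-like sub-cluster held 0 Hal UMIs in 363 control cells and 3 in 454 WD cells. In sub-cluster 5 Hal was present in all 3 libraries, at 91.6, 77.1 and 72.7 CPM (control, HHcy and WD), and there it was at 90.5 CPM in cells of 0 Apoe UMIs and 73.9 CPM in cells of 10 or more.

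Ifi202b, an interferon-inducible gene, had 118 UMIs in the 182 macrophages/monocytes of 10 or more Apoe UMIs and 7 UMIs in the 659 cells of 0, or 64.0 against 1.19 CPM. In sub-cluster 5 of that library it had 42 UMIs in 32 high cells and 0 in 30 cells of 0. By library, Ifi202b had 246, 198 and 2 UMIs in macrophages/monocytes of the control, HHcy and WD libraries, or 14.4, 17.3 and 0.068 CPM. It was thus close to absent from the macrophages/monocytes of the WD library. In those of the control library it was at 14.6 CPM in cells of 0 Apoe UMIs and 13.9 CPM in cells of 1 to 9.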
